A study of Mus musculus with 48 samples.

Results

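The Myc and Max network comprises the 10 genes Myc, Mycn, Max, Mxd1, Mxd3, Mxd4, Mxi1, Mnt, Mlx and Mga, which were followed here in RNA and in ribosome footprints of Ba/F3 cells with defects in ribosomal proteins. The genes were taken by their symbol in the deposited table, in which each symbol occurred once, and they are 10 of the 55487 genes listed. All 10 passed the filter on low counts at every level: in RNA (12814 genes tested), in footprints (16217) and in both assays together (12074). The cells were clones of Ba/F3, a mouse haematopoietic line that grows in interleukin 3 (IL-3), edited with CRISPR-Cas9. The 8 genotypes, each with 3 clones, were WT, the small-subunit mutants Rps15 H137Y and Rps15 P131S, and the large-subunit mutants Rpl10 R98S, Rpl5+/-, Rpl11+/-, Rpl22-/- and Rpl22+/-. The labels give the point mutations on both alleles, except that the RNA-seq titles of Rps15 P131S name the mutation once. Each clone gave 1 poly(A)-selected RNA library and 1 library of ribosome footprints, the stretches of mRNA of 28 to 30 nt that ribosomes shield from RNase I, and all cells were grown with 10% serum and 1 ng/ml IL-3 and met 0.1 mg/ml cycloheximide for 1 min before lysis. A replicate is therefore a clone, and the 3 WT clones serve as the control of all 7 mutant genotypes, so the 7 comparisons are not independent of each other.

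Proteins of this network share a basic helix-loop-helix leucine zipper, with which they pair and bind the E-box sequence CACGTG. Myc and Mycn pair with Max and activate genes for growth, ribosome production and the cell cycle. The Mxd proteins (Mxi1 among them), Mnt and Mga also pair with Max and compete with Myc for it and for E-boxes. Mxd proteins and Mnt bring Sin3 and histone deacetylases, while Mga is the scaffold of a variant polycomb complex. Mlx is a Max-like partner for Mnt, for some Mxd proteins and for the glucose-sensing Mondo proteins. In blood cells, Myc is known as an early target of cytokine signals, and the ribosomal proteins Rpl5 and Rpl11 are known to bind Myc mRNA or protein and to restrain it.

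Library totals were 13029073 to 38258559 counts in RNA and 15598994 to 72044439 in footprints. The edited gene was lower than in WT where a copy was lost: RNA stood at 67.2% of WT for Rpl5 in Rpl5+/-, 64.1% for Rpl11 in Rpl11+/-, and 72% and 66.7% for Rpl22 in Rpl22+/- and Rpl22-/-. In footprints, 1 clone went against its label: clone 30, labelled Rpl22-/-, had 1564 CPM of Rpl22, inside the range of the Rpl22+/- clones (1431 to 1594), while the other Rpl22-/- clones had 278 and 319 and WT 2370 to 2788. Myc RNA and footprints, Mlxip RNA and the comparison of Rpl22-/- with Rpl22+/- are therefore also reported without clone 30. Other values of Rpl22-/- include it unless stated. Rpl10 (93.5%) and Rps15 (108% in P131S, 81.3% in H137Y) did not pass the test in their point mutants, but Rps15 RNA split within both: it was 908 CPM in P131S clone 24 and 821 and 867 CPM in H137Y clones 6 and 2, 1828 to 1946 CPM in the other 3 clones, and 1434 to 1454 CPM in WT. Transcripts that define the labelled cells were present for the pan-leukocyte marker Ptprc (166 to 302 CPM, the depth-scaled read count) and the IL-3 receptor chains Il3ra, Csf2rb and Csf2rb2, but Kit was at 0 in all RNA libraries. Of 8 B-lineage markers 6, Pax5, Ebf1, Vpreb1, Igll1 and Rag1 among them, were below 1 CPM in all RNA libraries, whereas Cd79b was at 3.36 to 9.93 CPM and Cd79a at 0 to 9.78 CPM. The summed RNA of 5 neutrophil markers (Elane, Mpo, S100a8, S100a9, Ltf) lay between 10.8 and 117 CPM in WT, between 477 and 2901 in Rps15 H137Y and between 473 and 2672 in Rps15 P131S, with Elane never above 0.202 CPM. That sum was 134 to 363 CPM in Rpl5+/- and 5.28 to 11.2 in Rpl10 R98S, and its part in the results below was not tested. In bulk libraries such as these, fewer cells of a type and less RNA per cell cannot be told apart.

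Values are given as CPM after scaling of the libraries, and a change is the log2 ratio to WT with its standard error (SE) from a quasi-likelihood count model. A gene was called when its p-value, adjusted by the Benjamini-Hochberg method over all genes of the comparison, was below 0.05. The share of all genes whose clones lie apart from WT in a given genotype was not counted, so such separation is a description. Transcript lengths were not used, so levels are compared between genotypes and not between genes. In RNA, 17 of the 70 member-by-genotype pairs were called, 7 higher and 10 lower, and 8 of the 10 genes were called at least once. Footprints gave 2 calls, both for Mycn. Translational efficiency, tested as the part of a footprint difference that RNA does not share, also gave 2 calls, for Max and Mga.

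The number of members called followed the share of all genes called. In RNA, no member was called in Rpl5+/-, where 1.04% of all genes were called, and 1 of 10 was called in Rpl11+/- (11.8% of all genes), in Rpl22+/- (3.9%) and in Rpl22-/- (5.27%). Rpl10 R98S had 3 of 10 called (12.9% of all genes), Rps15 P131S 5 of 10 (47%) and Rps15 H137Y 6 of 10 (41%). At the level of footprints, 1 of 10 was called in Rps15 P131S (16.7% of all genes) and in Rps15 H137Y (11.7%). None was called in Rpl5+/- (0.0123%), Rpl11+/- (0.074%), Rpl22+/- (0.253%), Rpl22-/- (0.105%) or Rpl10 R98S (1.62%). For translational efficiency, 1 of 10 was called in Rps15 P131S (5.39% of all genes) and in Rps15 H137Y (4.28%), and none in Rpl22+/- (0.00828%), Rpl22-/- (0.0414%) or Rpl10 R98S (0.364%). In Rpl5+/- and Rpl11+/- 0% of all genes were called for translational efficiency by edgeR, with 240 and 473 genes at an unadjusted p below 0.05, 16 and 25 genes called by DESeq2 and 0 by limma voom. In RNA of the Rps15 mutants, 5 and 6 members of 10 lie near the shares of all genes.

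**Figure D1:**
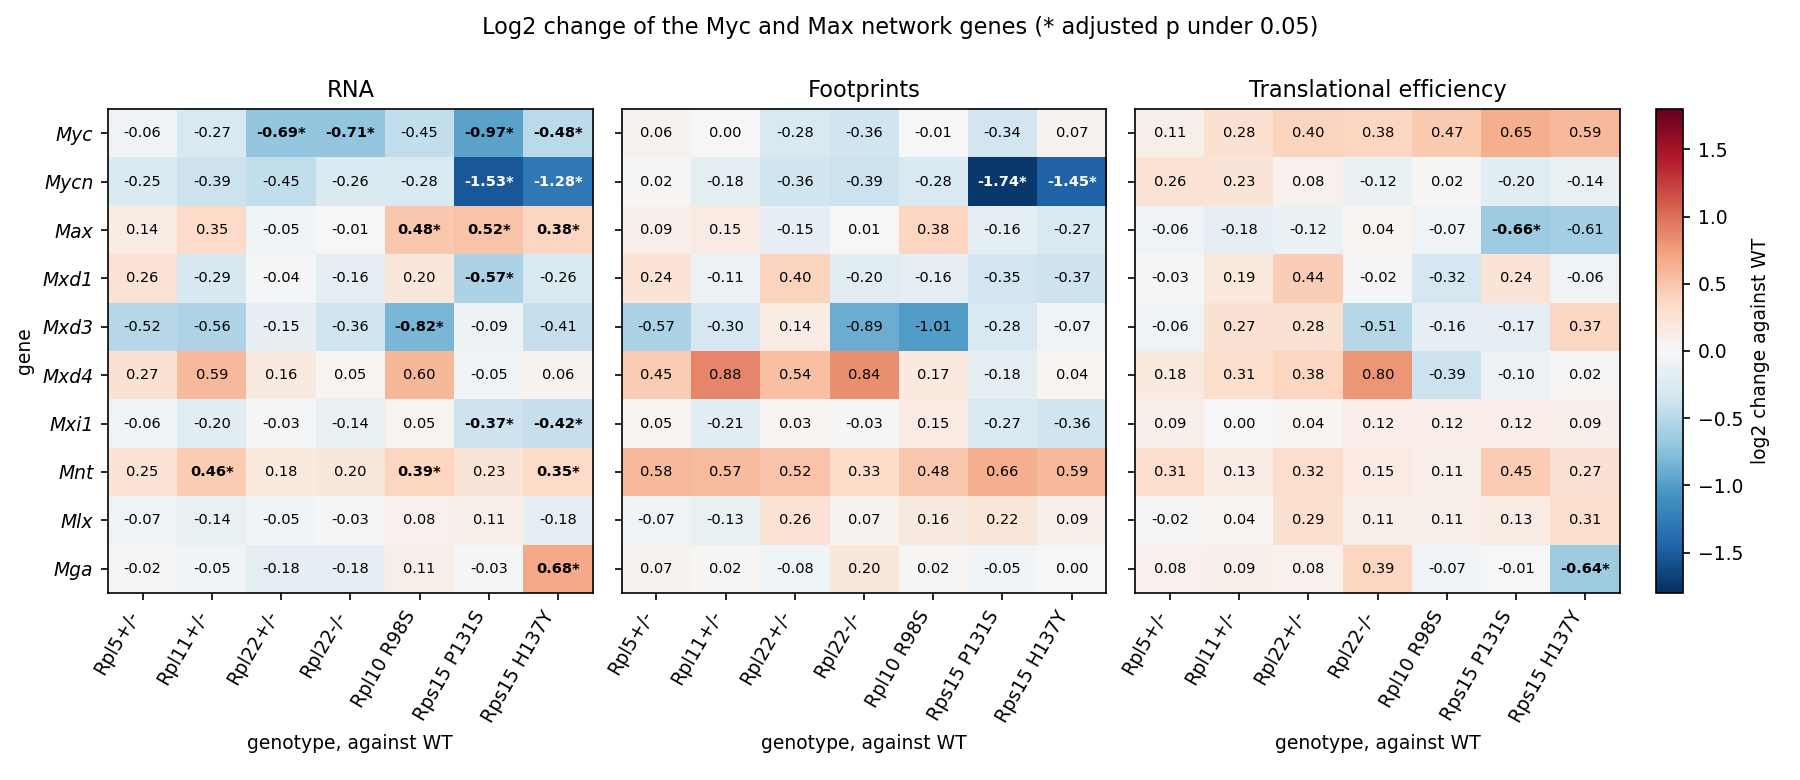
Log2 change against WT (colour and printed value) of the 10 genes (rows) in 7 mutant genotypes (columns) for RNA, footprints and translational efficiency, with an asterisk where the adjusted p was below 0.05. Myc and Mycn RNA values are below 0 in all 7 columns and those of Mnt above 0, while the strongest footprint values are those of Mycn in the Rps15 mutants (-1.74 and -1.45).

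Myc, the principal activator of the network (chromosome 15, 61985341 to 61990361 in GRCm38.p6, protein-coding), had less RNA in the mutants. The 3 WT clones had 375, 383 and 382 CPM of Myc RNA. Rps15 P131S clones had 259, 205 and 121 CPM, Rps15 H137Y clones 267, 303 and 248, Rpl22-/- clones 253, 253 and 187, and Rpl22+/- clones 211, 245 and 251. Rpl10 R98S clones had 288, 275 and 270 CPM, Rpl11+/- clones 304, 366 and 274, and Rpl5+/- clones 355, 373 and 357. Every one of the 21 mutant clones was below the lowest WT clone, which held for 2.26% of all genes tested in RNA. By mean level the order was WT, Rpl5+/-, Rpl11+/-, Rpl10 R98S, Rps15 H137Y, Rpl22+/-, Rpl22-/- and Rps15 P131S, and of the neighbours in this order only WT and Rpl5+/- had clones that did not overlap.

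Myc RNA fell in 4 genotypes by the edgeR test. The change was -0.97 (SE 0.18, adjusted p 0.000263) in Rps15 P131S, which is 51.2% of the WT level. In Rpl22-/- it was -0.71 (SE 0.18, adjusted p 0.0237), in Rpl22+/- -0.69 (SE 0.18, adjusted p 0.0371) and in Rps15 H137Y -0.48 (SE 0.18, adjusted p 0.0389). The other 3 values, -0.45 in Rpl10 R98S (adjusted p 0.103), -0.27 in Rpl11+/- (adjusted p 0.355) and -0.06 in Rpl5+/- (adjusted p 0.901), did not pass. The Rps15 P131S call held without any 1 of its 6 clones, with changes from -1.22 to -0.72, the smallest without clone 20. The call was lost for Rpl22+/- without any 1 of the 6 clones (adjusted p 0.071 to 0.153), for Rpl22-/- without any WT clone, clone 30 or clone 776 (0.0518 to 0.131) and for Rps15 H137Y without any WT clone, clone 16 or clone 2 (0.0732 to 0.122). These 3 calls were also lost with no filter on low counts (adjusted p 0.0952, 0.0633 and 0.0876). Without clone 30, whose Rpl22 footprints went against its label, the Rpl22-/- change was -0.78 (SE 0.21, adjusted p 0.0518). The Rpl10 R98S value passed with DESeq2 (-0.45, adjusted p 0.046) and with only the 2 genotypes fitted (-0.44, adjusted p 9.14e-06). Rps15 P131S and Rps15 H137Y differed by -0.49 (SE 0.18, adjusted p 0.0528) with overlapping clones, and Rpl22-/- and Rpl22+/- by -0.03 (SE 0.18, adjusted p 1).

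Footprints on Myc mRNA were not called in any genotype. WT clones had 609, 571 and 688 CPM of Myc footprints. In Rps15 H137Y the values were 584, 788 and 541 CPM, in Rpl10 R98S 602, 586 and 638, and in Rpl11+/- 576, 621 and 649, all groups that overlap WT. The Rps15 P131S clones had 653, 445 and 354 CPM, the Rpl22-/- clones 537, 539 and 387, the Rpl22+/- clones 451, 492 and 589, and the Rpl5+/- clones 582, 683 and 666. The Rpl22-/- clones alone lay wholly outside the WT range, all below it. The changes ran from -0.36 (Rpl22-/-, SE 0.18, adjusted p 0.789) and -0.34 (Rps15 P131S, SE 0.18, adjusted p 0.222) to 0.07 (Rps15 H137Y, SE 0.18, adjusted p 0.865). Without Rps15 P131S clone 24, the P131S value was -0.58 (adjusted p 0.0238). Leaving out Rpl22-/- clone 30 (539 CPM) gave an Rpl22-/- value of -0.43 (SE 0.2, adjusted p 0.896), not called. The other Rpl22-/- clones, with 537 and 387 CPM, also lay below the WT range.

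**Figure D2:**
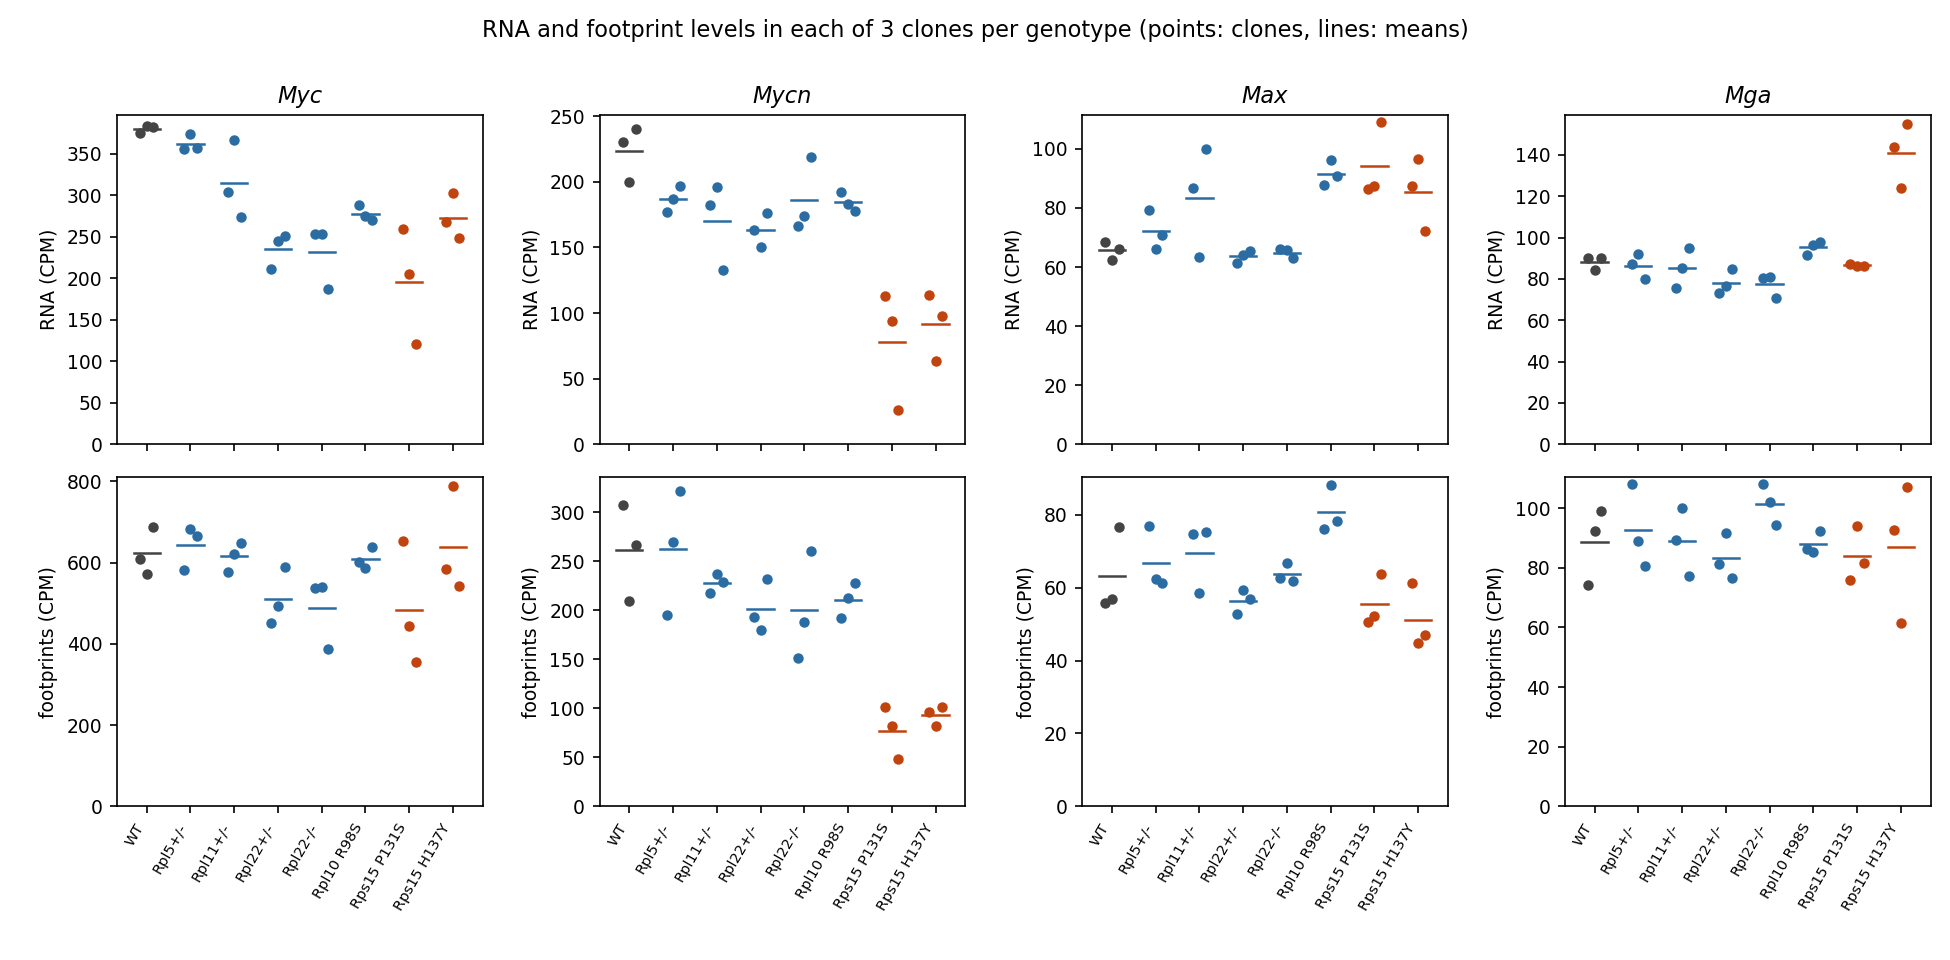
RNA (top, CPM) and footprints (bottom, CPM) of Myc, Mycn, Max and Mga in 3 clones of each genotype on axes from 0, with WT in grey, mutants of large-subunit proteins in blue and Rps15 mutants in orange. Myc RNA of all 21 mutant clones is below 375 CPM, Mycn of the Rps15 mutants is low in both rows, and Mga is high in Rps15 H137Y in RNA (124 to 155 CPM) but not in footprints (61.5 to 107 CPM).

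The ratio of footprints to RNA of Myc was higher in most mutant clones than in WT. The log2 ratio of footprint CPM to RNA CPM was 0.7, 0.58 and 0.85 in the WT clones. It was 1.34, 1.12 and 1.54 in Rps15 P131S, 1.13, 1.38 and 1.13 in Rps15 H137Y, and 1.06, 1.09 and 1.24 in Rpl10 R98S. Of the 21 mutant clones, 19 were above the highest WT clone, and the 2 others belonged to Rpl5+/- and Rpl11+/-. The share of all genes with such a pattern in the ratio was not counted. The interaction of assay and genotype was 0.65 (SE 0.26, adjusted p 0.153) in Rps15 P131S and 0.59 (SE 0.26, adjusted p 0.224) in Rps15 H137Y, neither called. The RNA and footprint library of a clone came from 1 divided lysate, and with the clone as a replicate block these values were 0.67 (SE 0.13, adjusted p 0.002) and 0.57 (SE 0.13, adjusted p 0.00846), both called. Under the block the values of Rpl10 R98S (0.47, SE 0.13, adjusted p 0.084) and Rpl22+/- (0.4, SE 0.13, adjusted p 0.214) did not pass. The block also gave more calls over all genes in both Rps15 mutants, with the counts in the last section.

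**Figure D3:**
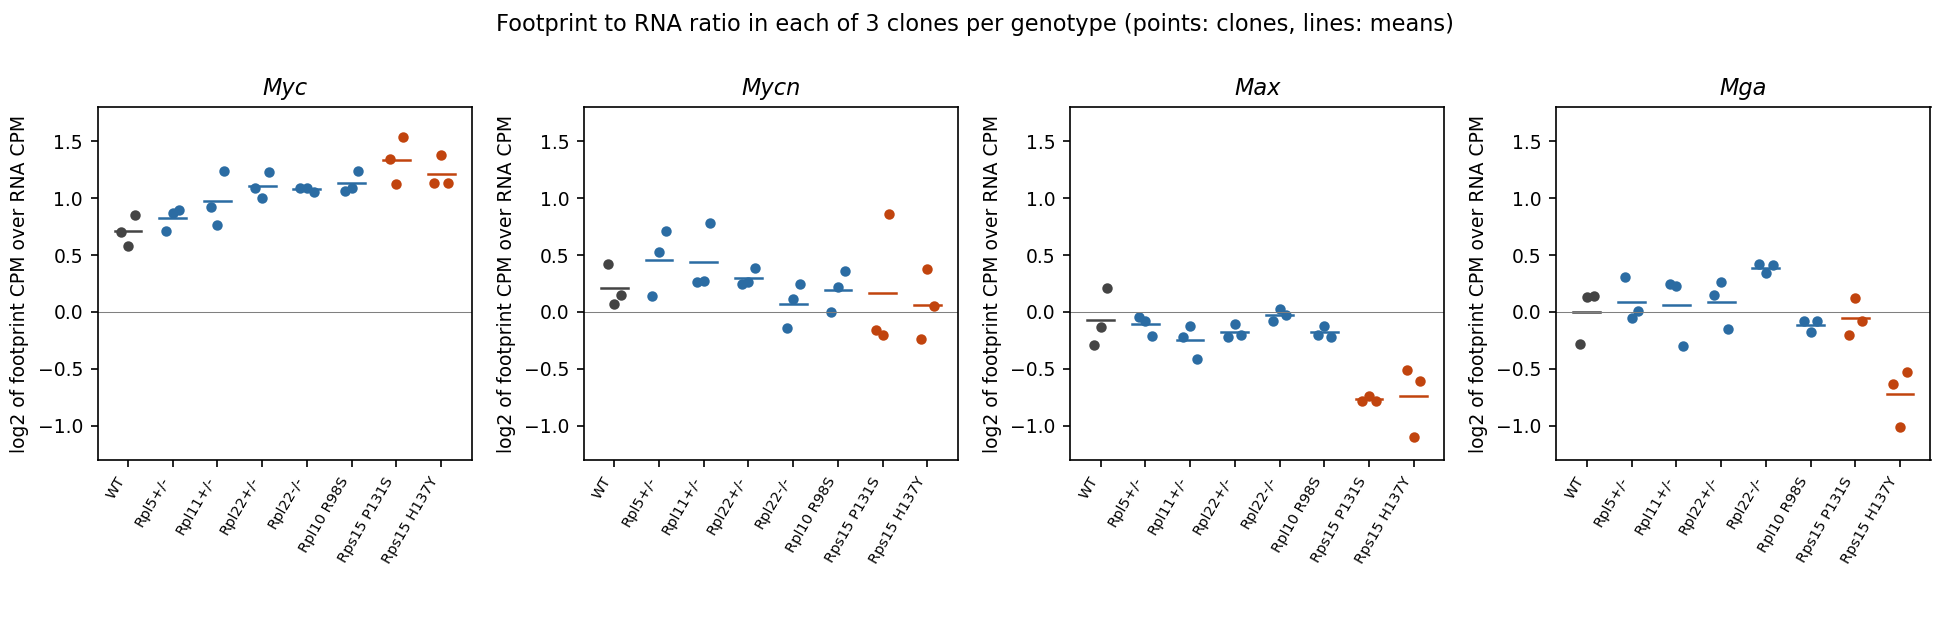
Log2 of footprint CPM over RNA CPM of Myc, Mycn, Max and Mga in 3 clones of each genotype, with lines at the means and the colours WT grey, large-subunit mutants blue and Rps15 mutants orange. The Myc ratio is above 0.85 in 19 of 21 mutant clones, the Max ratio is below every WT clone in both Rps15 mutants, and the Mga ratio is lowest in Rps15 H137Y (-0.63, -1.01 and -0.53).

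Mycn, the paralog of Myc best known from neural tumours and also active in blood stem cells (chromosome 12, 12936093 to 12941836, protein-coding), fell in both Rps15 mutants, in RNA and in footprints. WT clones had 230, 200 and 240 CPM of Mycn RNA. Rps15 P131S clones had 113, 93.8 and 26.4 CPM and Rps15 H137Y clones 114, 63.1 and 97.7. All 6 clones were below every clone of the other 6 genotypes, whose mutant clones ranged from 133 CPM (Rpl11+/- clone 22) to 219 CPM (Rpl22-/- clone 776). The change was -1.53 (SE 0.34, adjusted p 0.00158, 34.7% of WT) in Rps15 P131S and -1.28 (SE 0.34, adjusted p 0.00597, 41.1% of WT) in Rps15 H137Y. In the other 5 mutants the values ran from -0.45 (Rpl22+/-, SE 0.33, adjusted p 0.577) to -0.25 (Rpl5+/-, SE 0.33, adjusted p 0.775).

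Mycn footprints were 307, 210 and 267 CPM in WT. They were 101, 81.5 and 47.9 CPM in Rps15 P131S and 96.2, 82.4 and 101 CPM in Rps15 H137Y. Again neither group overlapped WT, and the next lowest mutant clone was Rpl22-/- clone 649 with 151 CPM. The change was -1.74 (SE 0.23, adjusted p 7.75e-05) in Rps15 P131S and -1.45 (SE 0.23, adjusted p 0.000418) in Rps15 H137Y. Translational efficiency changed by -0.2 (SE 0.41, adjusted p 0.869) and -0.14 (SE 0.41, adjusted p 0.929), which did not pass and which an SE of this size does not narrow to 0. With the replicate block these values were -0.01 (SE 0.23, adjusted p 0.984) and -0.09 (SE 0.23, adjusted p 0.885), neither called. The difference between the Rps15 mutants was -0.24 (SE 0.34, adjusted p 0.66) in RNA and -0.29 (SE 0.23, adjusted p 0.553) in footprints. The 4 calls held without any 1 of the 6 clones. Without clone 20, the lowest of Rps15 P131S, the change was -1.12 in RNA (adjusted p 0.000341) and -1.5 in footprints (adjusted p 0.000423). Fitting only Rps15 P131S and WT gave -1.52 (SE 0.53, adjusted p 0.0681) in RNA, which ends that call. The neutrophil marker sum was also higher in both Rps15 mutants than in WT, without overlap, and its part in the Mycn values was not tested.

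Max, the obligate partner of Myc, Mycn, the Mxd proteins, Mnt and Mga (chromosome 12, 76937269 to 76962323, protein-coding), rose in RNA in 3 genotypes. WT clones had 68.4, 62.5 and 66.1 CPM. Rpl10 R98S clones had 87.7, 96.1 and 90.9 CPM, Rps15 P131S clones 86.5, 87.3 and 109, and Rps15 H137Y clones 87.3, 96.5 and 72.1. These 9 clones were all above the WT clones, a pattern whose share over all genes was not counted. The change was 0.52 (SE 0.12, adjusted p 0.00174) in Rps15 P131S, 0.48 (SE 0.12, adjusted p 0.0141) in Rpl10 R98S and 0.38 (SE 0.12, adjusted p 0.0179) in Rps15 H137Y. Rpl11+/- clones had 86.7, 63.4 and 100 CPM, overlapping WT, with a change of 0.35 (SE 0.12, adjusted p 0.0706) that was called without clone 414 (0.51, adjusted p 0.00284) and by DESeq2 (0.35, adjusted p 0.0468). Both Rpl22 genotypes stayed between 61.3 and 66 CPM. The Rps15 P131S call held without any 1 clone, while the Rpl10 R98S call was lost without WT clone 2 (adjusted p 0.0611) or clone A29 (0.0613), and the Rps15 H137Y call without WT clone 2 (0.0685), clone 16 (0.0523) or clone 6 (0.094).

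Max footprints did not rise with its RNA in the Rps15 mutants. They were 55.7, 57 and 76.5 CPM in WT, 50.5, 52.3 and 63.6 in Rps15 P131S and 61.3, 44.9 and 47.1 in Rps15 H137Y. In Rpl10 R98S they were 76.1, 88.1 and 78.2 CPM, 2 of them above the WT range. The footprint changes were -0.16 (SE 0.14, adjusted p 0.525), -0.27 (SE 0.15, adjusted p 0.261) and 0.38 (SE 0.15, adjusted p 0.215), none called. The log2 ratio of footprints to RNA was -0.29, -0.13 and 0.21 in WT, -0.78, -0.74 and -0.78 in Rps15 P131S and -0.51, -1.1 and -0.61 in Rps15 H137Y, so that all 6 mutant clones lay below WT. Translational efficiency fell by 0.66 on the log2 scale (SE 0.19, adjusted p 0.0294) in Rps15 P131S, and the value of -0.61 (SE 0.19, adjusted p 0.0519) in Rps15 H137Y did not pass. With the replicate block both were called, at -0.65 (SE 0.12, adjusted p 0.00197) and -0.61 (SE 0.12, adjusted p 0.00433). Without the block, the Rps15 P131S call was lost without WT clone 1 or 2 or any of the 3 mutant clones (adjusted p 0.0636 to 0.183), with no filter on low counts (0.0601) and with only the 2 genotypes fitted (0.0611). The Rps15 H137Y value passed without clone 16 (-0.76, adjusted p 0.0285), with DESeq2 (-0.62, adjusted p 0.0334) and with limma voom (-0.61, adjusted p 0.0483).

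Mga, which joins an E-box domain to a T-box domain and holds together a variant polycomb complex (chromosome 2, 119872503 to 119970129, protein-coding), rose in RNA in Rps15 H137Y and in no other genotype tested. Rps15 H137Y clones had 144, 124 and 155 CPM, WT clones 90.3, 84.4 and 90, and Rps15 P131S clones 87.4, 86.4 and 86.1. The other 5 mutants ranged from 70.8 to 97.9 CPM, so no clone of another genotype reached the H137Y clones. The change in Rps15 H137Y was 0.68 (SE 0.09, adjusted p 4.87e-06), or 1.6-fold, against -0.03 (SE 0.09, adjusted p 0.808) in Rps15 P131S. The difference between the Rps15 mutants was itself called, P131S being -0.71 below H137Y on the log2 scale (SE 0.09, adjusted p 9.9e-06), in a comparison in which 25.2% of all genes were called. These calls held without any 1 clone. A pseudogene, Gm13998, overlaps Mga in the annotation, and whether the counting used strand is not given in the sources used here.

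Footprints on Mga did not change by the test in the same clones. They were 92.6, 61.5 and 107 CPM in Rps15 H137Y and 74.3, 92.4 and 99 CPM in WT, the mutant clones lying on both sides of the WT range, a change of 0 (SE 0.16, adjusted p 0.994). The log2 ratio of footprints to RNA was -0.63, -1.01 and -0.53 in Rps15 H137Y and -0.28, 0.13 and 0.14 in WT, without overlap. Translational efficiency fell by 0.64 on the log2 scale (SE 0.18, adjusted p 0.0311). The call was lost without WT clone 1 (adjusted p 0.125), WT clone 2 (0.165), clone 16 (0.0532) or clone 6 (0.0559), and with only the 2 genotypes fitted (-0.67, SE 0.23, adjusted p 0.152). With the replicate block it was -0.66 (SE 0.15, adjusted p 0.011). In the direct comparison of Rps15 P131S with H137Y the efficiency of Mga differed by 0.64 (SE 0.18, adjusted p 0.0711), which did not pass, where 1.18% of all genes were called.

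Mnt, the Max-binding repressor that is present in most cell types (chromosome 11, 74830806 to 74845725, protein-coding), was higher in RNA in all 21 mutant clones than in any WT clone, which held for 1.43% of all genes tested. WT clones had 33.7, 31.6 and 34.2 CPM. Rpl11+/- clones had 39.9, 39 and 57.4 CPM, Rpl10 R98S clones 44.2, 41.9 and 43.9, and Rps15 H137Y clones 43.6, 37.8 and 44.7. The other 12 mutant clones ranged from 35 to 40.7 CPM. Mnt rose by 0.46 (SE 0.11, adjusted p 0.00826) in Rpl11+/-, 0.39 (SE 0.11, adjusted p 0.0201) in Rpl10 R98S and 0.35 (SE 0.11, adjusted p 0.0121) in Rps15 H137Y, and the 4 values from 0.18 to 0.25 in the other genotypes did not pass. Clone 22 decided the Rpl11+/- call, since the change without it was 0.25 (SE 0.08, adjusted p 0.0709), and the call was also lost with only the 2 genotypes fitted (0.46, adjusted p 0.0905). The Rpl10 R98S call was lost without WT clone 2 or 3, clone A30 or clone A34 (adjusted p 0.0578 to 0.0813), and the Rps15 H137Y call without WT clone 2 (0.0535) or clone 2 of the mutant (0.0538).

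Mnt footprints were 8.04, 10.7 and 9.71 CPM in WT, and 20 of 21 mutant clones were above that range, the exception being Rps15 H137Y clone 6 with 9.57 CPM. Over all genes, 0.123% had all 21 mutant clones above WT in footprints and 0.302% had all 21 below, a stricter condition that Mnt does not meet. The share of genes with 20 clones above was not counted. The changes ran from 0.33 (Rpl22-/-, SE 0.25, adjusted p 0.993) to 0.66 (Rps15 P131S, SE 0.25, adjusted p 0.077), and no genotype passed in edgeR, while DESeq2 called Rps15 P131S (0.68, adjusted p 0.0406). Footprint counts of Mnt were between 265 and 932 per library, against 9320 to 48834 for Myc.

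The 4 genes of the Mxd family did not share a set of calls. RNA of Mxd1, Mxi1 and Mxd4, as of Myc and Mycn, was lowest in the same clone, Rps15 P131S clone 20. Mxd3 (chromosome 13, 55325170 to 55329900), a member known from dividing cells, fell in Rpl10 R98S, where clones had 5.41, 5.58 and 3.8 CPM against 8.82, 7.83 and 9.69 in WT. That change was -0.82 (SE 0.19, adjusted p 0.00786) and held without any 1 clone. In 17 of 21 mutant clones Mxd3 RNA was below WT, and the share of all genes with such a count was not determined. The other genotypes, from -0.56 in Rpl11+/- (SE 0.19, adjusted p 0.0596) to -0.09 in Rps15 P131S (SE 0.19, adjusted p 0.711), did not pass in edgeR. Rpl11+/- was called by DESeq2 (-0.56, adjusted p 0.0362), by limma voom (-0.62, adjusted p 0.0279) and without clone 414 (-0.75, adjusted p 0.0154), a group in which clone 22 had 3.64 CPM and the other clones 6.82 and 7.44. Mxd3 overlaps the protein-coding gene Prelid1 in the annotation, and its library counts were 59 to 282 in RNA.

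Mxd1 (chromosome 6, 86647044 to 86669234), known to rise as blood cells differentiate, fell in Rps15 P131S RNA, with 4.9, 4.4 and 3.03 CPM against 6.56, 6.47 and 5.26 in WT. The change of -0.57 (SE 0.18, adjusted p 0.0143) was lost without clone 20 (-0.4, adjusted p 0.0954) or WT clone 3 (-0.52, adjusted p 0.0547) and with only the 2 genotypes fitted (-0.57, adjusted p 0.0634). Mxi1 (chromosome 19, 53310128 to 53373293), also called Mxd2, fell in both Rps15 mutants. WT clones had 172, 170 and 164 CPM, Rps15 H137Y clones 111, 149 and 118, and Rps15 P131S clones 166, 135 and 91.9, of which the first lay inside the WT range. The changes were -0.42 (SE 0.14, adjusted p 0.0257) in H137Y and -0.37 (SE 0.14, adjusted p 0.0419) in P131S. In P131S clone 20 decided the value, which was -0.17 (SE 0.11, adjusted p 0.233) without it, and the call was also lost without any WT clone or clone 63 (adjusted p 0.066 to 0.0969), with no filter (0.0904) and with only the 2 genotypes fitted (0.178). The H137Y call was lost without WT clone 2 or 3, clone 16 or clone 2 (adjusted p 0.0573 to 0.115) and with no filter (0.0542).

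Mxd4 (chromosome 5, 34176580 to 34187710), which pairs with Max and with Mlx, did not pass in any genotype in edgeR. Its RNA was 28.6, 26.4 and 27.4 CPM in WT, 46.7, 42.6 and 35.1 CPM in Rpl10 R98S and 39.3, 34.9 and 49.6 CPM in Rpl11+/-, groups that did not overlap WT. The changes were 0.6 (SE 0.2, adjusted p 0.0552) and 0.59 (SE 0.2, adjusted p 0.061). Both passed with DESeq2 (adjusted p 0.0208 and 0.023) and with only the 2 genotypes fitted (0.000498 and 0.0319), the first also with limma voom (0.046), and the second without clone 414 (0.7, adjusted p 0.0363). Rps15 P131S clone 20 had 16.1 CPM, the lowest of all 24 clones, beside 35.2 and 28.5 CPM in the other clones of its genotype. Mlx (chromosome 11, 101086707 to 101092207) varied least, with changes from -0.18 (Rps15 H137Y, SE 0.09, adjusted p 0.101) to 0.11 (Rps15 P131S, SE 0.09, adjusted p 0.303) against WT. Without H137Y clone 6 the lower value was -0.24 (adjusted p 0.0376). The 2 Rps15 mutants differed from each other in Mlx RNA, with 30.7, 36 and 30.8 CPM in P131S and 25.4, 28.9 and 25.3 CPM in H137Y, a difference of 0.29 (SE 0.09, adjusted p 0.0165) that was lost without P131S clone 63 (adjusted p 0.0948), H137Y clone 16 (0.0703) or H137Y clone 2 (0.0556). Mlx overlaps the protein-coding gene Psmc3ip in the annotation.

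**Figure D4:**
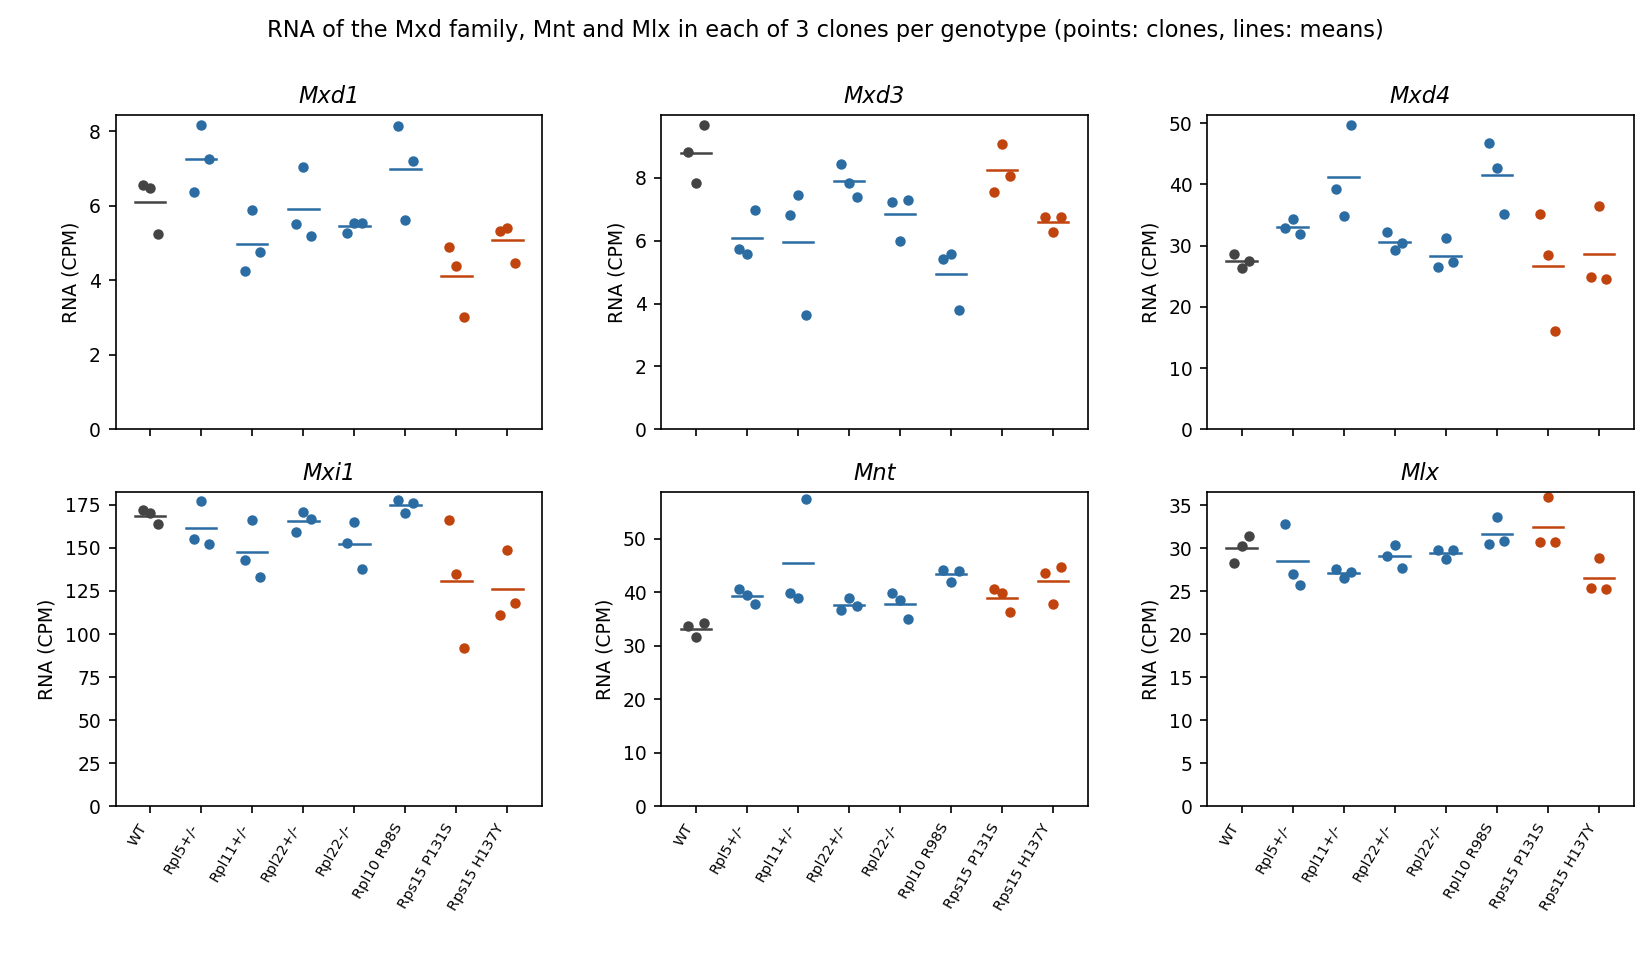
RNA (CPM, axes from 0) of Mxd1, Mxd3, Mxd4, Mxi1, Mnt and Mlx in 3 clones of each genotype, with lines at the means and the colours WT grey, large-subunit mutants blue and Rps15 mutants orange. Mnt is above the WT clones (31.6 to 34.2 CPM) in all mutant clones, and Mxi1, Mxd4 and Mxd1 are all lowest in Rps15 P131S clone 20 (91.9, 16.1 and 3.03 CPM).

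In footprints and translational efficiency no Mxd gene and not Mlx passed the edgeR test in any genotype. The largest footprint values were -1.01 for Mxd3 in Rpl10 R98S (SE 0.32, adjusted p 0.125, and 0.0433 with DESeq2) and 0.88 for Mxd4 in Rpl11+/- (SE 0.39, adjusted p 0.454). Mxd1, Mxd3 and Mxd4 had as few as 55, 139 and 98 footprint counts in a library, and the SE of their footprint changes was 0.32 to 0.5. Apart from Mga and Mlx in RNA, no member was called between the Rps15 mutants, for which 4.17% of all genes were called in footprints. Between Rpl22-/- and Rpl22+/- no member was called at any level, and 0.0078% of all genes were called in RNA, 0.00617% in footprints and 0% in translational efficiency (1335 genes at an unadjusted p below 0.05, 48 called by DESeq2 and 0 by limma voom). Without clone 30 no member was called either, with Myc RNA at -0.1 (SE 0.2, adjusted p 1).

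Since the network acts through E-boxes, the 250 bases before an annotated start of each gene were read from RefSeq windows (GRCm38.p6). They were searched for CACGTG, which reads the same on both strands. Such a start need not be the outermost end of the gene. Windows were matched for 9 of the 10 genes, all but Myc. CACGTG occurred in 3 of these 9 genes, Mnt, Mlx and Mxd4, and in 6.86% of all 27025 genes with a window, or 6.02% of 32851 windows. These 3 windows are shown with that of Mycn, the member with the largest change, and that of Max, neither of which holds the motif. Sequences run 5′ to 3′ on the gene's strand, capitals mark CACGTG, and the match is a description of the letters.
Mnt, chr11:74830674-74830923 (+): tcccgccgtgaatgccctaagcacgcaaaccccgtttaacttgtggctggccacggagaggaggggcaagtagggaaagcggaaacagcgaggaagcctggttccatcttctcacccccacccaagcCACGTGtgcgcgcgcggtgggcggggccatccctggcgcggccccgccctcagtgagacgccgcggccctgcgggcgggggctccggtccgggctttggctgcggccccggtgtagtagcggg
Mlx, chr11:101087040-101087289 (+): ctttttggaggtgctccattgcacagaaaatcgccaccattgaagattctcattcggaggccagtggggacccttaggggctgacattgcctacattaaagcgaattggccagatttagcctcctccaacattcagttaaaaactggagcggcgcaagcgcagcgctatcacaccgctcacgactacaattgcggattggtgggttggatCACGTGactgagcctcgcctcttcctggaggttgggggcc
Mxd4, chr5:34187711-34187960 (-): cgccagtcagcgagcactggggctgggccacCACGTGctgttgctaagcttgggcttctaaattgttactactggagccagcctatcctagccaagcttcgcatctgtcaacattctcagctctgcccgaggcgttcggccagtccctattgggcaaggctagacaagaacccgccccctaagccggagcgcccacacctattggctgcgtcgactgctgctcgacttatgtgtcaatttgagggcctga
Mycn, chr12:12941837-12942086 (-): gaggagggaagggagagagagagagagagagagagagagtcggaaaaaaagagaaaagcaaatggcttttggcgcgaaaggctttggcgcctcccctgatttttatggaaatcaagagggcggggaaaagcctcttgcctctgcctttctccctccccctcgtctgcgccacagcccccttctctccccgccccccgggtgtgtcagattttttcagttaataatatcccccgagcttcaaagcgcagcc
Max, chr12:76962249-76962498 (-): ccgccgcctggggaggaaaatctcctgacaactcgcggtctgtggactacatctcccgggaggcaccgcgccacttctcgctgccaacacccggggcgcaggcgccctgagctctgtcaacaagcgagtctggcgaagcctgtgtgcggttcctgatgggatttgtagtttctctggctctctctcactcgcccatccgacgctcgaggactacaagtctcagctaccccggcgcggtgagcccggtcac

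The first base of the motif lies 123 bases before the start at which the Mnt window ends, 40 before that of Mlx and 219 before that of Mxd4. The Mlx window lies wholly, and the Mnt and Max windows partly, inside the gene coordinates given above. Distances to the outer ends of those genes therefore differ. Of these 3 genes, Mnt was called in RNA in 3 genotypes and Mlx and Mxd4 in none against WT. A second motif, TTCNNNGAA, which STAT factors downstream of IL-3 are known to bind and which also reads the same on both strands, was in none of the 9 member genes and in 8.13% of all genes with a window.

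Over the 24 RNA libraries, the gene whose log2 CPM was most like that of Myc among 8487 others with a mean of at least 10 CPM was Id1, an inhibitor of helix-loop-helix proteins, with a Pearson r of 0.937. Klhl24 (0.871), Mfap3 (0.843), AU022252 (0.838) and Map3k1 (0.835) followed, and the most opposite were Mpdu1 (-0.882), the splicing regulator Tra2b (-0.871) and Maip1 (-0.865). For Max, the most alike were Set (0.921), Ftsj3 (0.919), AI662270 (0.912), Gtf3c6 (0.904) and Nolc1 (0.902), of which Ftsj3 and Nolc1 are nucleolar proteins of ribosome production, and the most opposite were Spice1 (-0.881), Cyb5r1 and Gtpbp2 (both -0.87). Among the members, Mycn and Mxi1 had r = 0.752, Myc and Mycn 0.668, and Mycn and Max -0.623. The 24 points fall into 8 genotypes of 3 clones, and clones of a genotype share their defect.

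Genes around the network were taken from lists and counted against all genes tested. Of 54 genes commonly given as activated by Myc, mostly of ribosome production, nucleotide synthesis and metabolism, 43 were called in Rps15 P131S RNA (79.6%), 39 higher and 4 lower, beside 47% of all genes, 23.7% of all genes being higher. Their median log2 change was 0.49 (0.31 without clone 20), and -0.014 over all genes. In P131S footprints 38 rose and 3 fell, with a median of 0.62 beside -0.037, where 8.42% of all genes rose. Myc RNA in the same clones was 51.2% of WT and Mycn RNA 34.7%. Footprints were at 78.9% of WT for Myc (adjusted p 0.222, not called) and at 29.9% for Mycn. Without clone 20 the list had 33 higher and 5 lower in RNA, and 28 higher and 2 lower in footprints. The part of the neutrophil marker sum, higher in the same clones, was not tested.

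The same list had 26 genes higher and 6 lower in Rps15 H137Y RNA (median 0.27, with 21% of all genes higher), and 13 higher and 3 lower in H137Y footprints, where 5.22% of all genes rose. When 1 clone was left out, the H137Y footprint calls numbered 7 to 14, lowest without WT clone 2. In Rpl10 R98S RNA 16 were higher and 3 lower (median 0.26, 6.82% of all genes higher), with 10 to 14 called when 1 clone was left out, lowest without WT clone 3. Rpl11+/- RNA had 18 higher and 2 lower (median 0.25, 5.73% of all genes higher), and 4 called without clone 22. In Rpl5+/-, Rpl22+/- and Rpl22-/- RNA 0, 1 and 2 of 54 were called. Named by how often they were called, Plk4, the kinase of centriole duplication, fell in 6 of 7 genotypes in RNA (-0.64, SE 0.08, adjusted p 2.07e-06 in Rps15 H137Y), Slc3a2, an amino acid transporter chain, was called in 4 (-0.87, SE 0.09, adjusted p 5.46e-07 in H137Y) and Rrp12, a factor of ribosome export, in 4 (1.02, SE 0.13, adjusted p 3.42e-06 in H137Y). In footprints Prmt5, an arginine methyltransferase, was called in 3 genotypes (0.64, SE 0.12, adjusted p 0.00083 in P131S), Nop16 in 2 (0.88, SE 0.14, adjusted p 0.00036 in P131S) and Slc3a2 in 2. For translational efficiency 3 of 54 (5.56%) were called in P131S, near the 5.39% of all genes: Hk2 (0.93, SE 0.19, adjusted p 0.00192), Pes1 (0.46, SE 0.12, adjusted p 0.014) and Plk4 (-1, SE 0.29, adjusted p 0.0322), and none in another genotype.

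Of 8 genes given as repressed by Myc, 7 were tested. In Rps15 P131S RNA 3 fell and none rose, beside 23.4% of all genes that fell. These are 42.9% of the list, beside 47% of all genes called in either direction. The P131S median was -0.93, and -0.46 without clone 20. In Rps15 H137Y RNA 2 fell and 1 rose (42.9%, beside 41% of all genes). Cdkn1b, the cell-cycle inhibitor p27, was called in 6 of 7 genotypes in RNA, with 73.7 ± 16.4 CPM (SD, n = 3) in Rps15 P131S and 169 ± 12.3 in WT (-1.2, SE 0.16, adjusted p 9.76e-06), and in 2 in footprints. Cdkn2c, another inhibitor, was at 35.4 ± 1.18 CPM in P131S and 72.3 ± 4.29 in WT (-1.03, SE 0.15, adjusted p 1.6e-05). Ndrg1 was at 44.9 ± 44 CPM in P131S and 281 ± 53.3 in WT (-2.65, SE 0.76, adjusted p 0.00891).

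**Figure D5:**
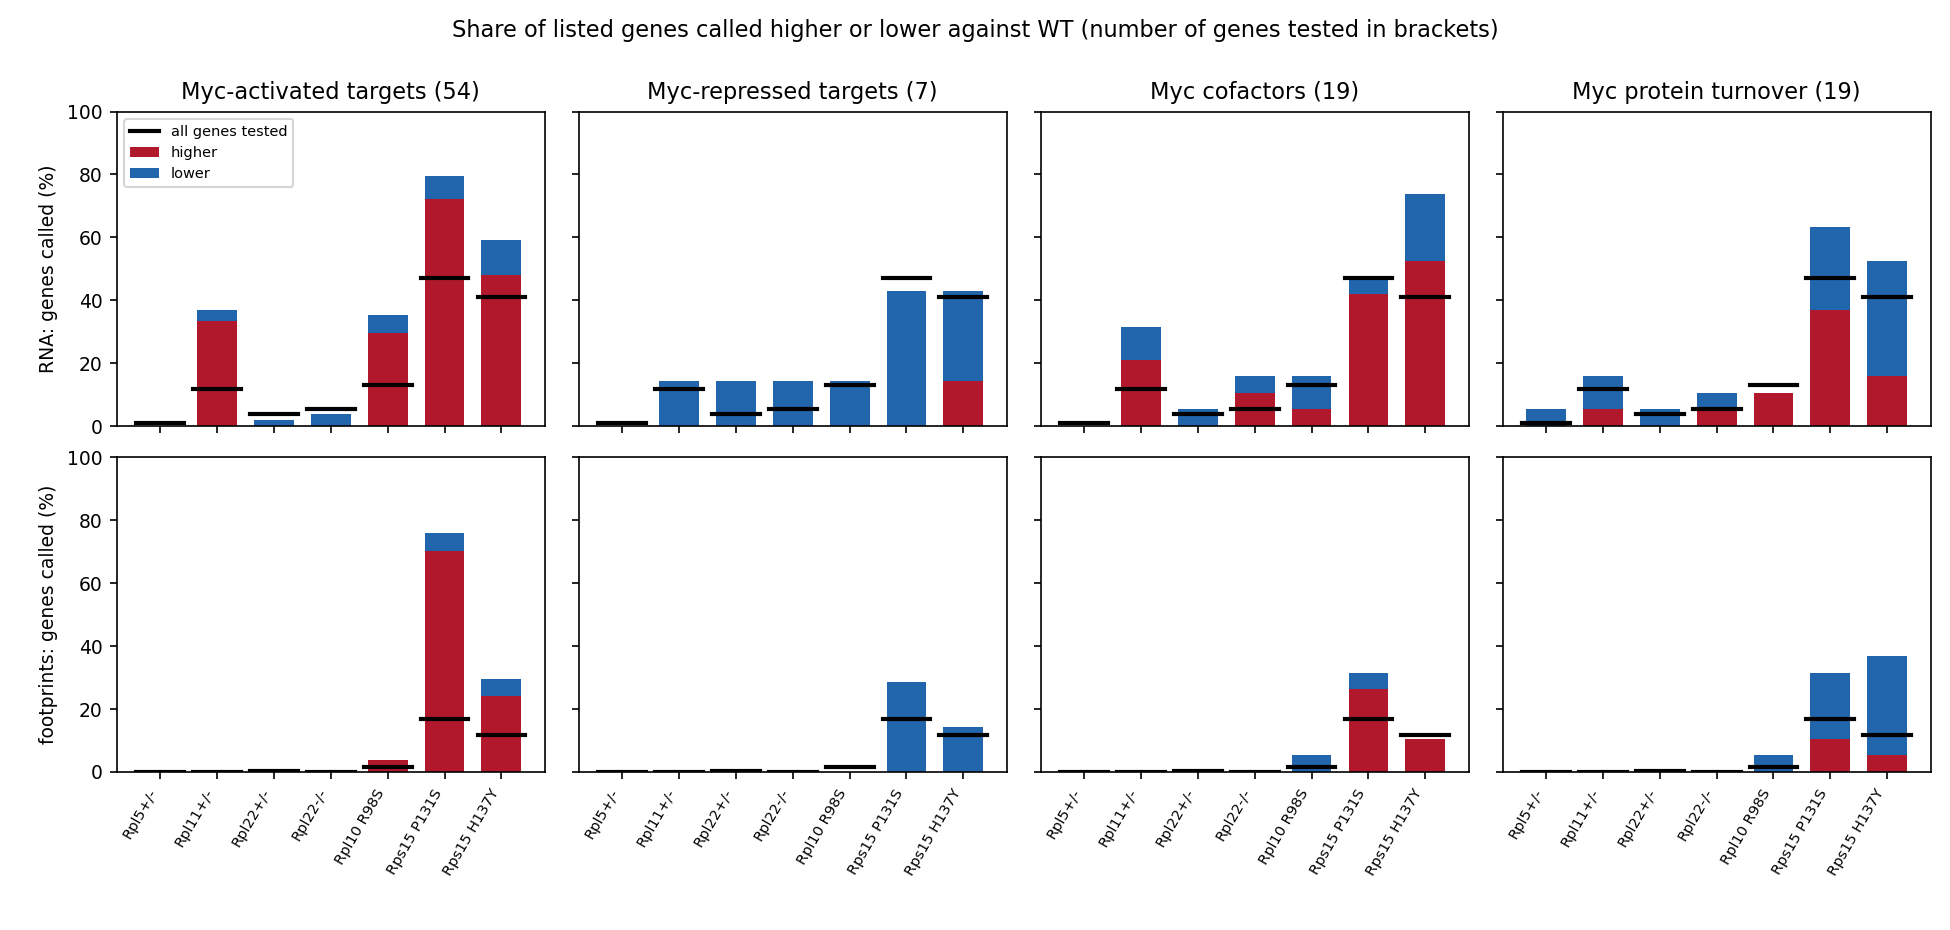
Share (%) of the genes of 4 lists called higher (red) or lower (blue) against WT in 7 genotypes, in RNA (top) and footprints (bottom), with a black line at the share of all genes tested. In Rps15 P131S the bar of the Myc-activated list reaches 79.6% in RNA and 75.9% in footprints, with lines at 47% and 16.7%.

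Among 19 cofactors of Myc, 14 were called in Rps15 H137Y RNA, 10 higher and 4 lower, and 9 in Rps15 P131S, 8 higher and 1 lower (6 without clone 20). These are 73.7% and 47.4% of the list, beside 41% and 47% of all genes. Ccnt1, the cyclin of the elongation kinase P-TEFb, was called in 6 genotypes and was at 29.5 ± 1.05 CPM in P131S and 47.8 ± 1.54 in WT (-0.7, SE 0.09, adjusted p 3.24e-06). Its kinase Cdk9 (0.33, SE 0.06, adjusted p 0.000308 in P131S) and the elongation factor Supt5 (0.96, SE 0.08, adjusted p 6.71e-07 in Rpl10 R98S) were each called in 4. In footprints 6 cofactors were called in P131S (2 without clone 20) and 2 in H137Y. The chromatin remodeller Ep400 was called in both (0.42, SE 0.11, adjusted p 0.00927 in P131S). Translational efficiency was called for 5 of 19 in each Rps15 mutant, 3 higher and 2 lower (26.3%, beside 5.39% of all genes in P131S and 4.28% in H137Y). When 1 clone was left out, 1 to 4 were called in P131S (lowest when WT clone 1, WT clone 3 or P131S clone 20 was dropped) and 1 to 5 in H137Y, lowest without WT clone 2. The acetyltransferases Crebbp (-1.07, SE 0.21, adjusted p 0.00128 in P131S) and Kat2a (-0.7, SE 0.15, adjusted p 0.00341 in H137Y) were lower in efficiency. Mean RNA was 42 CPM for Crebbp in P131S and 120 CPM for Kat2a in H137Y, beside 26.9 and 91.8 in WT. Ruvbl2 was higher in efficiency in H137Y (0.44, SE 0.11, adjusted p 0.0134), with mean RNA of 184 CPM beside 240 in WT.

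Of 19 genes for the stability of the Myc protein, 12 were called in Rps15 P131S RNA (7 higher, 5 lower) and 10 in Rps15 H137Y (3 higher, 7 lower), which are 63.2% and 52.6% beside 47% and 41% of all genes. In H137Y footprints 6 were lower and 1 higher (36.8%, beside 11.7% of all genes), with a median of -0.28 beside 0 over all genes, and 4 to 6 were called when 1 clone was left out, lowest without WT clone 3. Skp2, a ubiquitin ligase subunit, was called in 6 genotypes in RNA (lower in all 6; -0.7, SE 0.12, adjusted p 8.62e-05 in H137Y). Huwe1, a ubiquitin ligase, rose in H137Y RNA (0.5, SE 0.08, adjusted p 2.75e-05), and Usp28, a deubiquitinase of Myc, fell (-0.61, SE 0.09, adjusted p 3.12e-05). Footprints of Cip2a, which shields Myc from the phosphatase PP2A, fell in 3 genotypes, to 44 ± 4.21 CPM in H137Y from 94.2 ± 3.6 in WT (-1.07, SE 0.13, adjusted p 3.15e-05), and its efficiency in P131S changed by -0.76 (SE 0.16, adjusted p 0.00287). Gsk3b, a kinase that marks Myc for degradation, had 108 ± 3.51 CPM of RNA in P131S and 109 ± 5.74 in WT and fell in efficiency there (-0.69, SE 0.13, adjusted p 0.00102). For translational efficiency 3 of 19 were called in P131S, all lower (15.8%, beside 5.39% of all genes). In H137Y 6 were called, 1 higher and 5 lower (31.6%, beside 4.28% of all genes), and 2 without WT clone 2.

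Of 17 tested regulators of the Myc gene and mRNA, 12 were called in Rps15 P131S RNA (10 higher, 2 lower; 8 without clone 20) and 7 in Rps15 H137Y, which are 70.6% and 41.2% beside 47% and 41% of all genes. Ptbp1 was called in 4 genotypes (0.38, SE 0.06, adjusted p 4.17e-05 in P131S) and the initiation helicase Eif4a1 in 2 (0.46, SE 0.07, adjusted p 1.05e-05 in P131S). In footprints 2 rose in P131S, Hnrnpd (0.61, SE 0.16, adjusted p 0.0124) and Cnbp (0.44, SE 0.15, adjusted p 0.0469), and neither was called without clone 20. Of 15 Sin3 and other corepressors for Mxd and Mnt, 8 were called in P131S RNA (5 without clone 20 or WT clone 3) and 7 in H137Y, 53.3% and 46.7% beside 47% and 41% of all genes. Sin3a itself was lower in P131S (-0.46, SE 0.07, adjusted p 4.39e-05), and Brms1 (0.65, SE 0.09, adjusted p 7.34e-06) and Suds3 (0.45, SE 0.07, adjusted p 3.15e-05) were higher. Of 10 partners of Mga, 3 were called in H137Y RNA and 5 in P131S, 30% and 50% beside 41% and 47% of all genes. In footprints 1 of the 10 was called in P131S (10%, beside 16.7% of all genes) and 3 in H137Y (30%, beside 11.7%). The H137Y count was 0 to 1 when 1 clone was left out, lowest without WT clone 3. Pcgf6, the subunit that defines the complex, had more footprints in both (0.77, SE 0.17, adjusted p 0.00317 in P131S), its H137Y call being lost without WT clone 3. Its partner Rnf2 fell in H137Y RNA (-0.42, SE 0.08, adjusted p 0.000524). Of the 4 remaining genes of the network proper only Mlxip, the glucose sensor MondoA, was tested. Its RNA rose in H137Y (0.25, SE 0.07, adjusted p 0.00492) and fell in Rpl11+/- (-0.24), Rpl22+/- (-0.29) and Rpl22-/- (-0.31). Its efficiency in H137Y changed by -1.02 (SE 0.25, adjusted p 0.0128). The Rpl11+/- and Rpl22+/- calls and this efficiency call were lost without WT clone 3, and the Rpl22-/- call without clone 30.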

How the data were processed

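The authors deposited 1 table of estimated counts per Ensembl gene for the 48 libraries, with decimal fractions and no normalization, as read from its values and title. Per the submitters' processing notes, STAR 2.6.1d, Salmon 1.4.0, DESeq2 1.30 and the build GRCm38 were used, in roles not given in the sources used here. The estimated counts were rounded and tested with edgeR 4.0.16 (R 4.3.3): scaling by trimmed means of M values (TMM) within each assay, genes kept by filterByExpr with a minimum count of 10, 1 robust quasi-likelihood fit of all 24 libraries per assay, and two-sided tests adjusted by the Benjamini-Hochberg method. Translational efficiency was the assay-by-genotype interaction in a fit of all 48 libraries and 16 groups. Over 12074 genes, deviations of the RNA and footprint library of 1 clone correlated at 0.088 to 0.398, and those of other clones of the genotype at -0.283 to -0.021. The labels give the pairing: equal clone numbers and a divided lysate. Correlations of likeness used log2 CPM with a prior count of 0.5.

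Alternatives were RLE scaling, DESeq2 1.42.0, limma voom 3.58.1 on unrounded counts, no filter, only the 2 genotypes compared, each clone left out, a clone block, and limma on log ratios per clone. With 3 clones against 3, an exact permutation test cannot go below 0.1. The fits were tested on simulated counts for Rps15 P131S against WT: of genes changed 2-fold, 77% were recovered in RNA (12672 genes), 40% in footprints (15855) and 46% in efficiency (11915), and of those changed 1.5-fold 61%, 15% and 9%. Only 100 genes were changed by each fold, whereas 47% of genes were called in the real P131S RNA. The RNA and footprint counts of a clone were drawn independently, unlike the paired libraries. These shares therefore do not give the recovery in the real comparisons. The members and lists were chosen with earlier results of these data known. All 10 members are named, and of each list and level up to 3 genes, those called in most genotypes, with values from the genotype of lowest adjusted p. Promoter windows came from RefSeq (250 bases before an annotated start, GRCm38.p6). No explanation of any difference was tested.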

Additional observations from a re-analysis of the deposited data

Results flagged for a closer look

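Members were listed here when the 2 Rps15 mutants, compared with the same WT clones, differed from each other by a direct test between them in edgeR. Mga RNA was lower in Rps15 P131S than in Rps15 H137Y by -0.71 on the log2 scale (SE 0.09, adjusted p 9.9e-06), with 87.4, 86.4 and 86.1 CPM against 144, 124 and 155 CPM. Over all alternatives and clones left out the difference was between -0.79 and -0.63 and stayed called, with the highest adjusted p, 0.0191, when only these 2 genotypes were fitted. Mlx RNA was higher in Rps15 P131S by 0.29 (SE 0.09, adjusted p 0.0165), with values from 0.21 to 0.35 over the same alternatives. That call was lost when only the 2 genotypes were fitted (0.28, adjusted p 0.179) and without P131S clone 63, H137Y clone 16 or H137Y clone 2. Outliers within a genotype were not screened, because each group held 3 clones.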

How the results depend on the processing

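No called change of a member reversed its sign under any alternative run. In RNA the count of 17 member calls was 17 with RLE scaling, 22 with DESeq2, 19 with limma voom, 12 without the filter, 22 with only the 2 genotypes fitted, and 8 to 20 when 1 clone was left out, lowest without WT clone 2 and 10 without WT clone 3. Fewer samples enter those fits, and all 7 comparisons share the WT clones. The 2 footprint calls became 4 with DESeq2, which added Mxd3 in Rpl10 R98S and Mnt in Rps15 P131S, and were 2 to 3 with a clone left out. The 2 efficiency calls became 5 with the replicate block and 5 with limma on log ratios per clone, each adding Myc in both Rps15 mutants and Max in H137Y and 1 without the filter, where Max in P131S was lost. With only the 2 genotypes fitted both were lost, and the 1 call was Myc in Rpl10 R98S (0.45, adjusted p 0.0264). With a clone left out they were 0 to 3, and 0 without WT clone 1 or WT clone 2. The replicate block changed no other call.

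Counts over all genes moved by more than 1.5 times in places: in Rpl5+/- RNA 133 genes were called, 387 with DESeq2, 49 without the filter and 1868 with only the 2 genotypes fitted. Rps15 P131S efficiency had 651 calls, 1127 with the block and 419 without the filter, and H137Y 517, 878 with the block and 312 with only the 2 genotypes. The cause was not tested. Depth limits the genes of few counts: Mxd1 had 55 to 311 footprint counts per library, with an SE of 0.5 in footprints and 0.18 in RNA.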
